A study of Rattus norvegicus with 11 samples.

Results

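The 8 genes described here are immediate-early and injury transcription genes of the rat: Fos, Jun, Junb, Egr1, Arc, Nr4a1, Atf3 and Dusp1. They were taken by Ensembl ID from a table of 32623 gene IDs, with no threshold on a measured value but with earlier results of these data known, and 8 of 8 passed the filter on low counts that left 15758 genes. The table holds IDs only, and the pairing of the 8 IDs with symbols came with the list; it was not checked against a gene table of the build used, rn6. All libraries were made from poly(A)-selected RNA of ipsilateral spinal cord of male rats weighing 350 to 400 g. The PTX+SCS group (3 libraries) was given intraperitoneal paclitaxel (1.5 mg/kg on each of days 1, 3, 5 and 7), an electrode, and spinal cord stimulation (SCS) at 50 Hz with 0.2 ms pulses at 80% MoT. Paclitaxel stabilises microtubules in dividing tumour cells and also harms sensory axons, and SCS is an electrical treatment for pain. The PTX+Sham SCS group (5 libraries) received paclitaxel and the electrode without stimulation. The Naive group (3 libraries) received none of these, so drug and electrode surgery cannot be told apart in any comparison with Naive libraries. Sample titles mark the stimulated group with S and the sham group with X, and the group label was followed. The letter S could also stand for sham, and no deposited value checks the labels; were they exchanged, the sign of each PTX+SCS against PTX+Sham SCS value would turn and both comparisons with Naive would change places. The labels used here state neither strain and age nor the interval between the last stimulation and tissue collection.

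Immediate-early genes are transcribed soon after a cell is stimulated, without new protein synthesis, and their mRNAs are short-lived. In spinal cord neurons, Fos in particular has long served as a marker of recent activity evoked by noxious or electrical input, and Atf3 marks neurons whose axons are injured. Calcium and MAP kinase signals reach these genes through the CREB, SRF and AP-1 transcription factors, and Dusp1 closes the loop by switching the kinases off. In bulk tissue, a change in the number of cells that express a gene and a change in the RNA per cell cannot be told apart.

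Total counts were 18633243 to 29395233 in PTX+SCS, 11243288 to 22144967 in PTX+Sham SCS and 17401720 to 56775931 in Naive libraries, and each of the 8 genes had at least 38 counts in every library. Levels are CPM, counts divided by the library total and scaled to a common one, with TMM factors applied. CPM does not correct for transcript length, so levels of different genes are not compared. Libraries are named SCS 1, SCS 2 and SCS 5, sham 1 to 5 and naive 1 to 3. Unless another tool, a left-out library or an adjustment over gene pairs is named beside it, an adjusted p comes from the edgeR quasi-likelihood test over all 15758 genes. The threshold was 0.05. Markers of neurons, glia, blood and dorsal root ganglion were not measured here, because the other IDs are not paired with symbols, so the labelled tissue was not checked and the part of cell makeup in the results was not tested.

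In these 8 genes, no difference between PTX+SCS and PTX+Sham SCS libraries passed the test. Of the 8, 0 differed between PTX+SCS and PTX+Sham SCS libraries by edgeR, where 3.57% of all tested genes did. The count was also 0 by DESeq2 (6.88% of the genes it tested) and by limma-voom (3.99%), and 0 of the 8 reached an unadjusted p under 0.05 by edgeR, where 20.1% of all genes did. With only 8 genes, counts of 0 beside these shares do not set them apart from other tested genes. Against Naive libraries, 7 of the 8, all but Arc, stood higher in every PTX+Sham SCS library than in every Naive library (3.96% of all tested genes did), and the same 7 in every PTX+SCS library (18.1% did). The log2 fold changes over Naive were largest for Dusp1, followed by Egr1, Atf3 and Nr4a1.

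**Figure D1:**
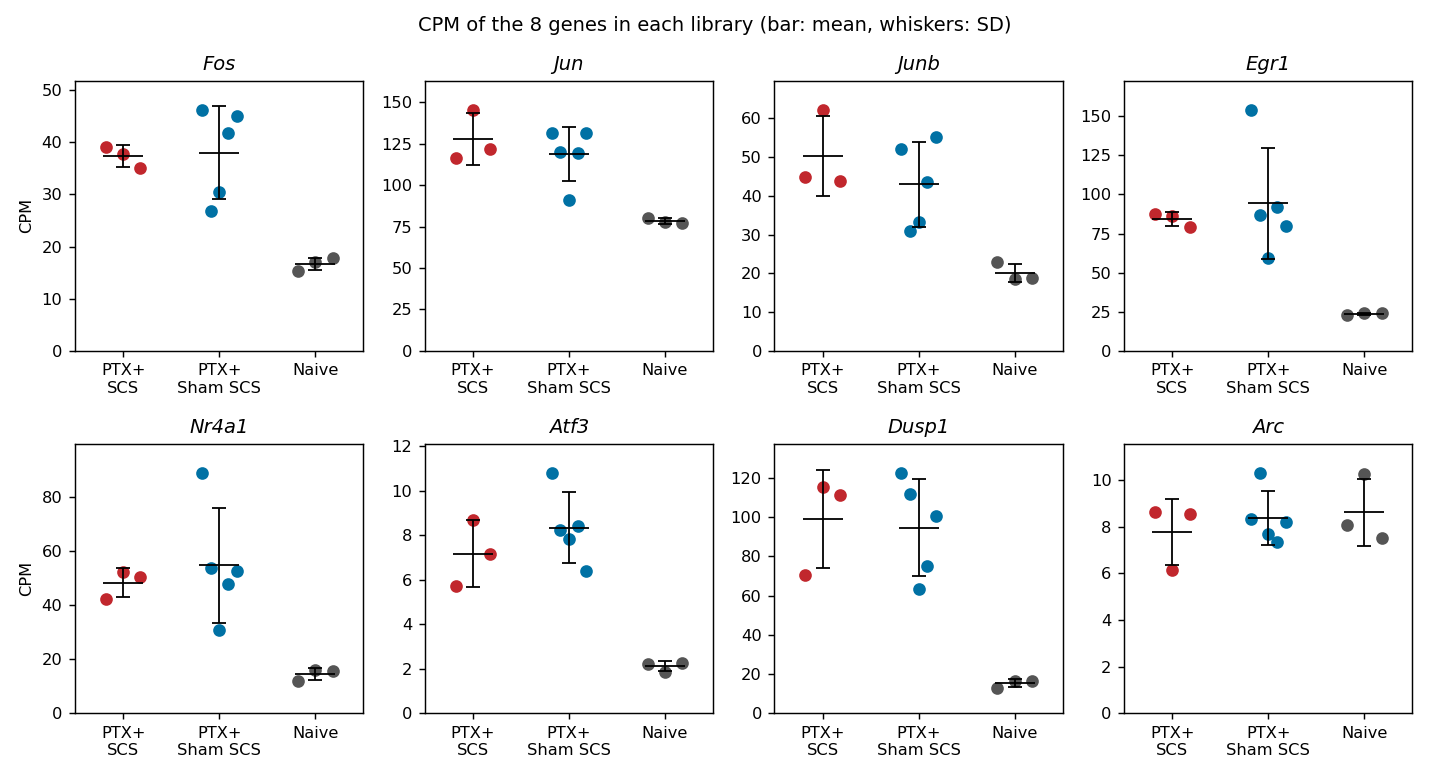
CPM of each gene (vertical axis, starting at 0) in the PTX+SCS, PTX+Sham SCS and Naive libraries; each point is 1 library, the bar is the mean and the whiskers are the SD (n = 3, 5 and 3). For 7 genes all Naive points lie below all points of both other groups, while the 3 groups of Arc overlap and all its points lie from 6.16 to 10.3 CPM.

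Fos, Jun and Junb encode subunits of AP-1, a dimeric transcription factor that binds as Fos-Jun or Jun-Jun pairs. Fos (ENSRNOG00000008015) was at 39.1, 37.8 and 35.0 CPM in SCS 1, SCS 2 and SCS 5, at 46.2, 26.8, 30.4, 41.8 and 44.995 CPM in sham 1 to 5, and at 15.4, 17.0 and 17.7 CPM in naive 1 to 3. The stimulated libraries lay inside the range of the sham libraries, and both groups lay above all Naive libraries. PTX+SCS over PTX+Sham SCS gave a fold of 0.979 (95% confidence interval 0.769 to 1.25; edgeR adjusted p = 0.942). Fos rose 2.27-fold in PTX+Sham SCS over Naive libraries (log2 fold change 1.18 ± 0.17, SE, edgeR adjusted p = 0.0215) and 2.22-fold in PTX+SCS over Naive libraries (1.15 ± 0.18, SE, edgeR adjusted p = 0.00242).

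Jun (ENSRNOG00000026293), a partner of Fos in AP-1 and a gene also induced in injured neurons, was at 116.1, 145.4 and 122.1 CPM in SCS 1, SCS 2 and SCS 5. The sham libraries held it at 131.8, 120.0, 91.3, 119.4 and 131.3 CPM, and the Naive libraries at 80.5, 77.8 and 76.9 CPM. Sham 3 was low for Jun, between the Naive libraries and the remaining sham libraries. The difference between PTX+Sham SCS and Naive libraries was 1.52-fold, or 0.60 ± 0.11 on the log2 scale (SE), and missed the threshold (edgeR adjusted p = 0.0618). It passed without sham 3 (0.68, edgeR adjusted p = 0.00114). Without any 1 of naive 1 to 3 it lay farther from passing (edgeR adjusted p 0.28 to 0.407). In PTX+SCS over Naive libraries Jun rose 1.63-fold (log2 fold change 0.71 ± 0.12, SE, edgeR adjusted p = 0.0026).

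Junb (ENSRNOG00000042838), which can replace Jun in AP-1 with weaker activity, was at 44.99, 62.2 and 43.7 CPM in SCS 1, SCS 2 and SCS 5, at 52.1, 30.9, 33.1, 43.5 and 55.3 CPM in sham 1 to 5, and at 22.8, 18.6 and 18.8 CPM in naive 1 to 3. Sham libraries split into lower values in sham 2 and sham 3 and higher values in sham 1, sham 4 and sham 5. PTX+Sham SCS was 2.16-fold over Naive, a log2 fold change of 1.11 ± 0.22 (SE) that missed the threshold (edgeR adjusted p = 0.136). It passed without sham 2 (edgeR adjusted p = 0.0314). Without any 1 of naive 1 to 3 it lay farther from passing (edgeR adjusted p 0.396 to 0.672). In PTX+SCS over Naive libraries Junb rose 2.52-fold (log2 fold change 1.33 ± 0.24, SE, edgeR adjusted p = 0.00581).

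Egr1 is a zinc finger transcription factor induced through SRF, and Nr4a1 is an orphan nuclear receptor induced by calcium and cyclic AMP signals. Egr1 (ENSRNOG00000019422) was at 87.6, 86.3 and 79.2 CPM in SCS 1, SCS 2 and SCS 5, at 154.1, 86.8, 59.6, 92.1 and 79.6 CPM in sham 1 to 5, and at 23.0, 24.0 and 23.9 CPM in naive 1 to 3. Sham 1 stood well above and sham 3 below the 3 stimulated libraries, which were close to each other. Egr1 rose 4.005-fold in PTX+Sham SCS over Naive libraries (log2 fold change 2.002 ± 0.28, SE, edgeR adjusted p = 0.0493) and 3.56-fold in PTX+SCS over Naive libraries (1.83 ± 0.30, SE, edgeR adjusted p = 0.00524). In the first of these comparisons the call rested near the threshold: it was lost without any 1 of the naive or SCS libraries, sham 4 or sham 5 (edgeR adjusted p 0.0832 to 0.304), while the log2 fold change stayed between 1.76 and 2.13 without any 1 library.

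Nr4a1 (ENSRNOG00000007607) was at 42.3, 52.3 and 50.2 CPM in SCS 1, SCS 2 and SCS 5, at 88.9, 53.7, 30.9, 47.8 and 52.5 CPM in sham 1 to 5, and at 11.96, 15.9 and 15.5 CPM in naive 1 to 3. As for Egr1, sham 1 was the highest and sham 3 the lowest of the sham libraries, and neither reached the Naive range. PTX+Sham SCS was 3.78-fold over Naive (log2 fold change 1.92 ± 0.31, SE), which did not pass (edgeR adjusted p = 0.0836). It passed without sham 1 (log2 fold change 1.68, edgeR adjusted p = 0.00815) and without sham 3 (2.06, edgeR adjusted p = 0.00763). Without any 1 of naive 1 to 3 it lay farther from passing (edgeR adjusted p 0.369 to 0.43). In PTX+SCS over Naive libraries Nr4a1 rose 3.30-fold (log2 fold change 1.72 ± 0.33, SE, edgeR adjusted p = 0.0103).

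Atf3 (ENSRNOG00000003745), a stress-induced transcription factor of the CREB family and a widely used marker of axonal injury, was at 5.70, 8.67 and 7.15 CPM in SCS 1, SCS 2 and SCS 5. The sham libraries held it at 10.8, 8.22, 7.84, 8.39 and 6.38 CPM, and the Naive libraries at 2.21, 1.88 and 2.28 CPM. All 8 libraries from rats with drug and electrode were therefore above the 3 Naive libraries. Atf3 rose 3.91-fold in PTX+Sham SCS over Naive libraries (log2 fold change 1.97 ± 0.20, SE, edgeR adjusted p = 0.000557), and it ranked 1 by unadjusted p among all 15758 genes in that comparison. In PTX+SCS over Naive libraries it rose 3.34-fold (log2 fold change 1.74 ± 0.21, SE, edgeR adjusted p = 0.000245). The counts behind these values were low, from 38 to 231 a library.

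Dusp1 (ENSRNOG00000003977) encodes a nuclear phosphatase that inactivates the MAP kinases, and it is itself an immediate-early gene. It was at 70.6, 115.5 and 111.3 CPM in SCS 1, SCS 2 and SCS 5, at 122.7, 111.6, 63.4, 75.2 and 100.4 CPM in sham 1 to 5, and at 13.0, 16.4 and 16.7 CPM in naive 1 to 3. SCS 1, sham 3 and sham 4 formed the lower part of the range, and the remaining stimulated and sham libraries the upper part. Dusp1 rose 6.12-fold in PTX+Sham SCS over Naive libraries (log2 fold change 2.61 ± 0.28, SE, edgeR adjusted p = 0.00922), rank 31 by log2 fold change among all tested genes. In PTX+SCS over Naive libraries it rose 6.37-fold (2.67 ± 0.29, SE, edgeR adjusted p = 0.000993).

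Arc (ENSRNOG00000043465), whose product acts at synapses and is induced by strong neuronal activity, was the exception. It was at 8.65, 6.16 and 8.56 CPM in SCS 1, SCS 2 and SCS 5, at 8.33, 10.3, 7.70, 7.32 and 8.21 CPM in sham 1 to 5, and at 8.07, 10.2 and 7.53 CPM in naive 1 to 3. All 3 groups overlapped. The log2 fold change was -0.03 ± 0.15 in PTX+Sham SCS over Naive (SE, edgeR adjusted p = 0.973), -0.13 ± 0.17 in PTX+SCS over Naive (SE, edgeR adjusted p = 0.638) and -0.10 ± 0.15 in PTX+SCS over PTX+Sham SCS (SE, edgeR adjusted p = 0.772). The sign of each turned in some alternatives. The 95% confidence interval in PTX+Sham SCS over Naive was 0.782-fold to 1.22-fold, below the point estimate of each of the other 7 genes.

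Counts within a library can be set against Arc without any scaling between libraries, a measure chosen after the values were seen and given with no test. Dusp1 had 8.16 to 18.8 reads per Arc read in PTX+SCS, 8.23 to 14.7 in PTX+Sham SCS and 1.60 to 2.21 in Naive libraries. Fos had 4.09 to 6.15 in PTX+SCS, 2.60 to 5.71 in PTX+Sham SCS and 1.66 to 2.35 in Naive libraries. For each of the 7 genes the lowest sham and the lowest stimulated library exceeded the highest Naive library in this ratio, by the smallest margin for Junb (3.00 in the lowest sham library against 2.83 in the highest Naive library). These 7 genes were already separate in CPM while Arc overlapped, so the ratio is no further support. It was not taken for other genes.

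**Figure D2:**
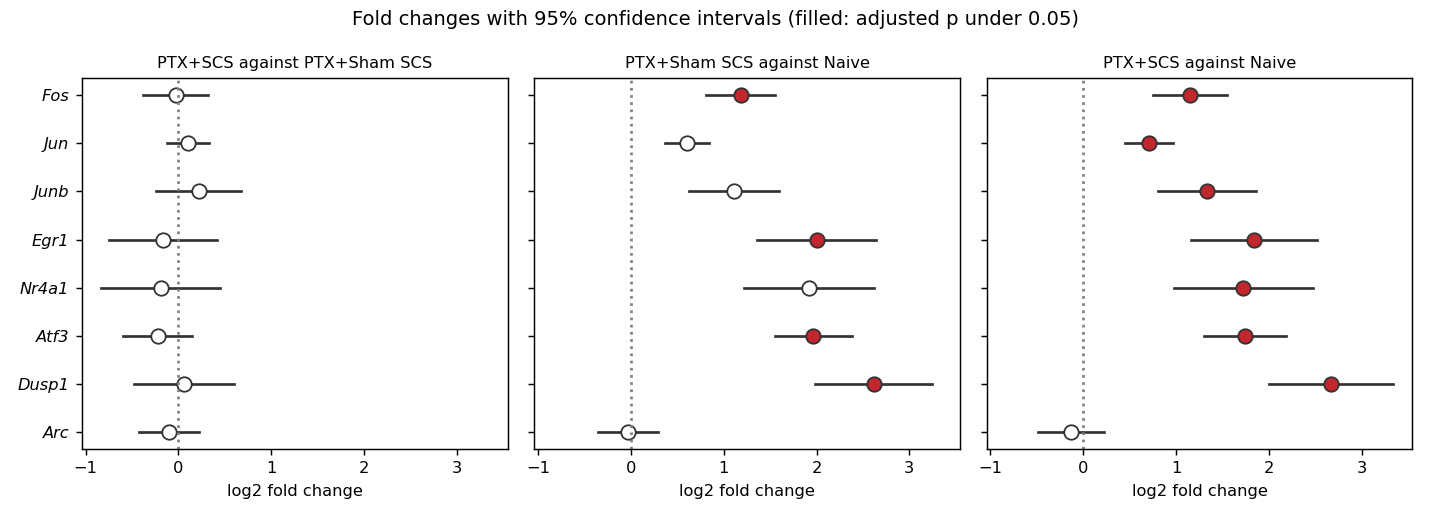
Log2 fold change (horizontal axis) of each gene in the 3 comparisons; points are edgeR estimates, lines are 95% confidence intervals, and filled points have an adjusted p under 0.05. In PTX+SCS against PTX+Sham SCS all 8 intervals include 0, and in both comparisons with Naive libraries 7 intervals lie above 0 and that of Arc includes it.

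The comparison of PTX+SCS with PTX+Sham SCS libraries asks whether these genes differed with stimulation when both groups had drug and electrode. Whether the levels over Naive libraries reflect neuronal activity was not tested. The log2 fold changes ran from -0.23 for Atf3 to 0.22 for Junb, 3 of 8 above 0, with a median of -0.07 against -0.01 over all tested genes. In 0 of 8 genes did the stimulated and sham libraries separate, where 10.2% of all tested genes did, so for 8 genes the count lies near that share. A p that misses the threshold does not show that the groups are alike, and the intervals give the sizes still open. In fold, they reached from 0.769 to 1.25 for Fos, 0.917 to 1.26 for Jun, 0.743 to 1.17 for Arc and 0.661 to 1.11 for Atf3. They were wider for the genes that varied most among sham libraries: 0.848 to 1.59 for Junb, 0.596 to 1.33 for Egr1, 0.562 to 1.36 for Nr4a1 and 0.715 to 1.51 for Dusp1. With only the stimulated and sham libraries in the fit, so that the low spread of the Naive libraries did not enter, the interval was 0.742 to 1.30 for Fos and 0.531 to 1.46 for Nr4a1.

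The comparison of PTX+Sham SCS with Naive libraries asks what differed after drug and electrode together. By the edgeR test 4 of the 8 genes rose (Fos, Egr1, Atf3 and Dusp1) and 0 fell, where 0.133% of all tested genes (21) rose. The median log2 fold change of the 8 genes was 1.55, against 0.01 over all tested genes. The count depended on the fit, while no direction changed in the 7 genes other than Arc. It was 1 without any 1 of naive 1, naive 2 and naive 3, 2 without SCS 2 and 2 without sham 4. Calls over all genes, in either direction, fell as well, from 22 in the main fit. They were 10, 6 and 11 without naive 1, naive 2 and naive 3, 17 without SCS 2 and 12 without sham 4. The count among the 8 genes was 7 with DESeq2, which called 0.744% of the genes it tested, and 7 with limma-voom and quality weights, which called 0.279%. Atf3 passed in all 19 alternatives (adjusted p 7.85e-17, by DESeq2, to 0.0222), Dusp1 in 15, Fos in 11 and Egr1 in 8. Of the genes that missed the threshold, Nr4a1 passed in 5 of the 19, Junb in 4, Jun in 3 and Arc in 0. The call of Fos was lost without any 1 of naive 1 to 3, SCS 2 and sham 4 (edgeR adjusted p 0.0663 to 0.19), and that of Dusp1 without any 1 of naive 1 to 3 (0.081 to 0.0905).

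PTX+SCS libraries differed from Naive libraries in drug, electrode and stimulation. Here 7 of the 8 genes rose by the edgeR test, where 10.1% of all tested genes rose. The median log2 fold change of the 8 genes was 1.53, against -0.02 over all tested genes. The 7 calls held without any 1 library. Both comparisons share the Naive libraries, so their values are set side by side without a test of likeness: the log2 fold changes over Naive were 2.67 in PTX+SCS and 2.61 in PTX+Sham SCS libraries for Dusp1, and 1.74 in PTX+SCS and 1.97 in PTX+Sham SCS libraries for Atf3.

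**Figure D3:**
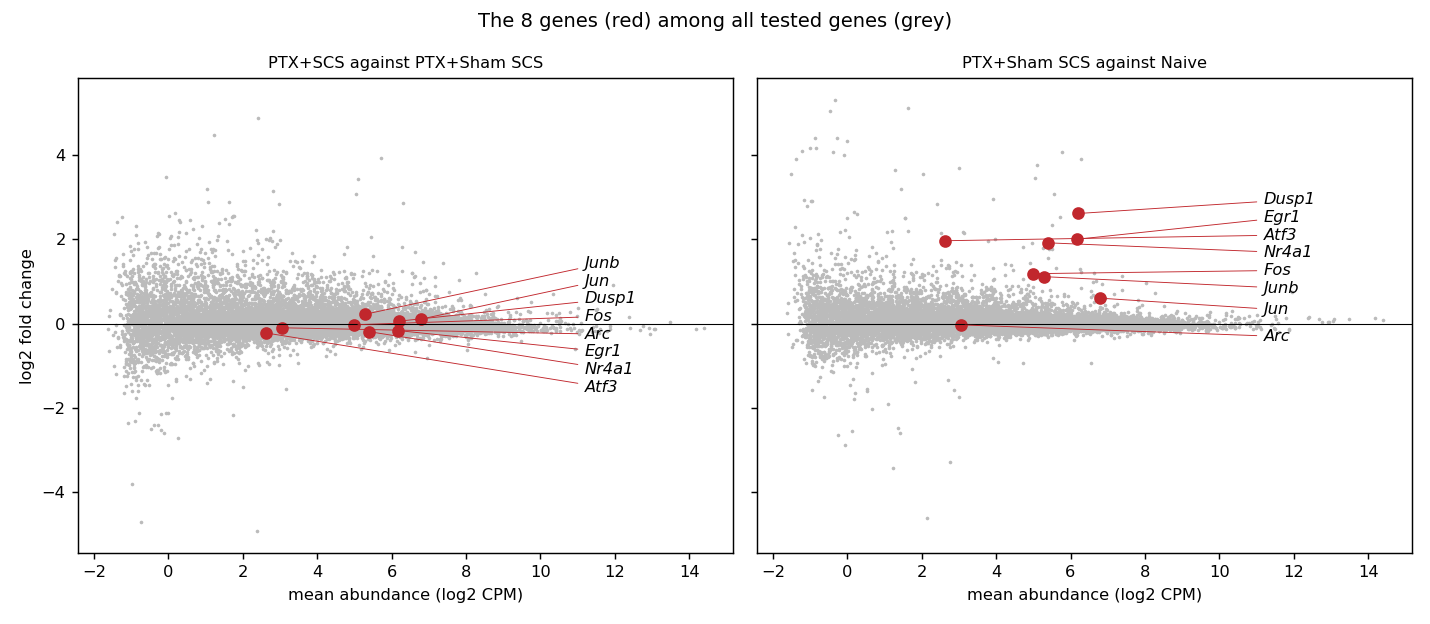
Log2 fold change (vertical axis) against mean abundance in log2 CPM (horizontal axis) of all 15758 tested genes (grey) with the 8 genes in red, for PTX+SCS against PTX+Sham SCS and for PTX+Sham SCS against Naive. The 8 genes lie within 0.23 of 0 in the first panel, and in the second they reach 2.61 for Dusp1 while Arc is at -0.03.

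The genes differed in how much they varied among libraries of 1 group. The within-group SD of log2 CPM was 0.41 for Nr4a1, 0.36 for Dusp1, 0.35 for Egr1, 0.31 for Junb, 0.26 for Fos, 0.25 for Atf3, 0.22 for Arc and 0.18 for Jun, against a median of 0.14 over all tested genes. Nr4a1 varied more than 86.6% of all tested genes and Jun more than 60.5%. The SD among PTX+Sham SCS libraries was the largest of the 3 groups for every gene but Arc and Atf3, for which that among PTX+SCS libraries was. Egr1 had an SD of 0.08 among PTX+SCS, 0.50 among PTX+Sham SCS and 0.03 among Naive libraries, and Fos had an SD of 0.08 among PTX+SCS, 0.36 among PTX+Sham SCS and 0.10 among Naive libraries. Whether these spreads differ between groups was not tested. Sham 1 was the highest sham library for 6 of the 8 genes, and sham 3 was the lowest for 4.

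**Figure D4:**
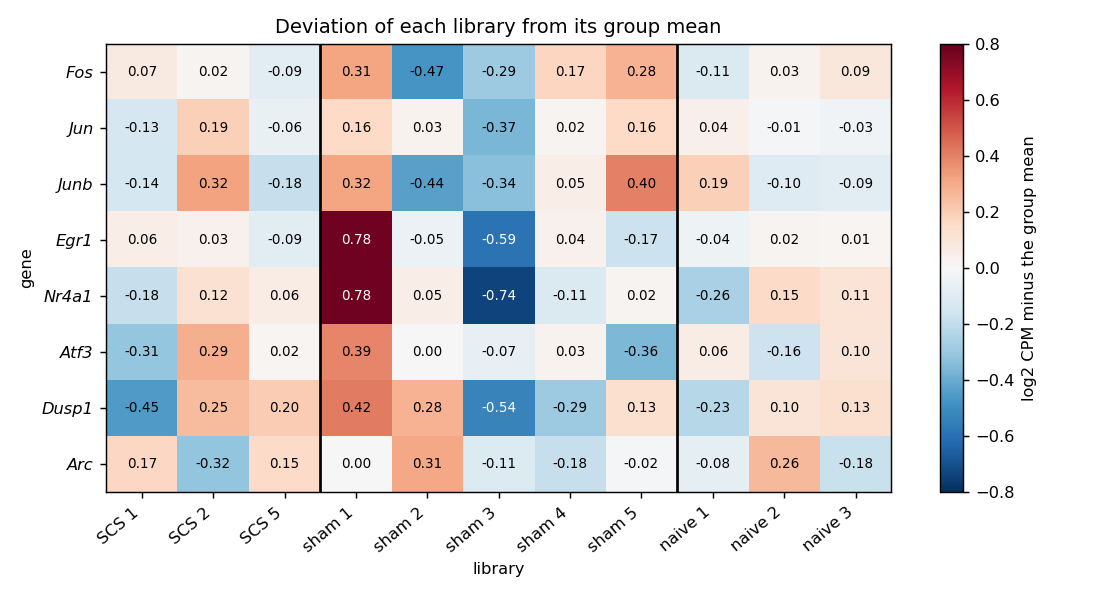
Log2 CPM of each gene (rows) minus the mean of its group, in each of the 11 libraries (columns); red is above and blue below the group mean, and the printed value is the deviation. Sham 1 reaches 0.78 for Egr1 and Nr4a1 and sham 3 reaches -0.74 for Nr4a1, while the deviations of the Naive libraries stay between -0.26 and 0.26.

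Whether the genes varied together among libraries of 1 group was examined for all 28 pairs, by exact two-sided permutation within groups and Benjamini-Hochberg adjustment over the 28 pairs. By Pearson's r 1 pair passed, and by Spearman's rho 0 pairs did. Nr4a1 and Dusp1 had a Pearson r of 0.845 over 11 libraries (exact permutation p = 0.000463, adjusted p = 0.013) and a Spearman rho of 0.745 (exact permutation p = 0.00324, adjusted p = 0.0907), so the pair did not pass by rank, and r was 0.858 without the 2 libraries farthest from the median of Nr4a1. No pair passed when any 1 sham library was left out. Fewer orders then remain and the smallest p that can be reached is larger, though a pair could still pass. Whether the relation was weaker without a sham library was not tested. Egr1 and Nr4a1 had the highest r, 0.899 (exact permutation p = 0.0549, adjusted p = 0.281; Spearman rho 0.427, exact permutation p = 0.225), and r was -0.09 without the 2 libraries farthest from the median of Egr1, so the relation rests on sham 1 and sham 3. All 21 pairs without Arc had r above 0 (median 0.53), and the 7 pairs with Arc ran from -0.53 to 0.14 (median -0.16).

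**Figure D5:**
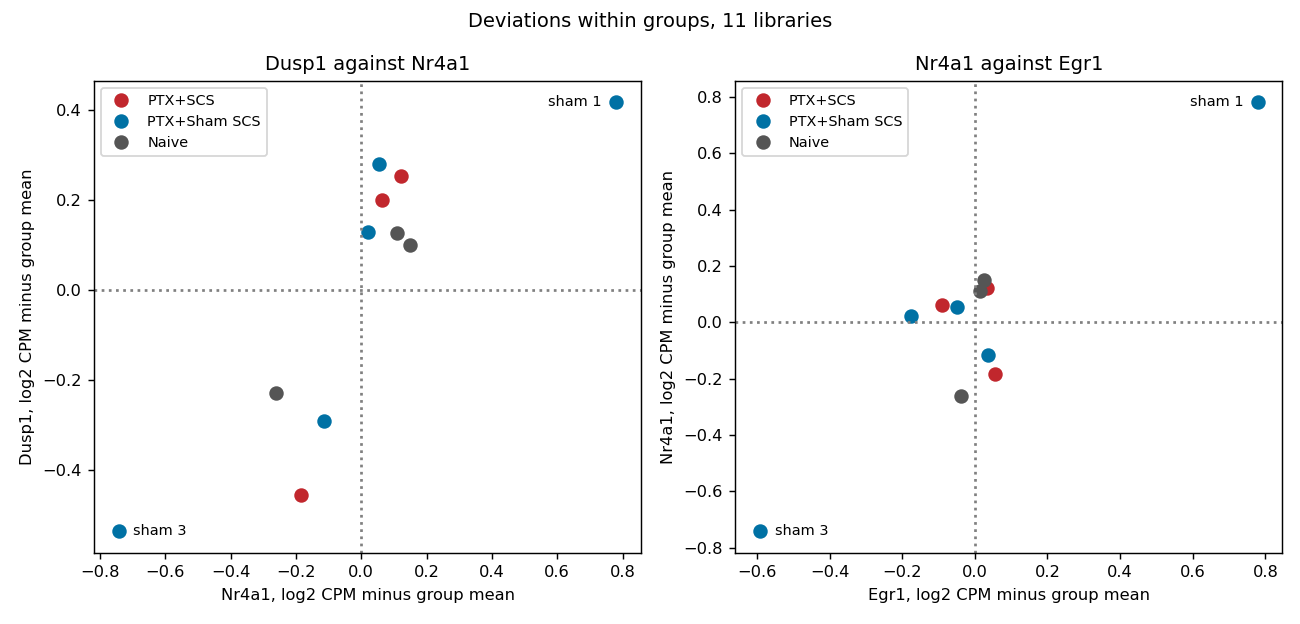
Deviations from the group mean in log2 CPM for Dusp1 against Nr4a1 and for Nr4a1 against Egr1; each point is 1 of 11 libraries, coloured by group. In the first panel r is 0.845, and in the second r is 0.899 with sham 1 and sham 3 at the ends.

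The promoters of the 2 genes of that pair are shown because they varied together and were among the largest differences from Naive libraries. The sequences are those of RefSeq for GRCr8, a later build than the one of the counts, from 250 bases before to 50 bases after the start of the gene, 5′ to 3′ on the gene's strand. Capitals mark the motifs found.
Dusp1 promoter (GRCr8, chr10:17184603-17184902, + strand): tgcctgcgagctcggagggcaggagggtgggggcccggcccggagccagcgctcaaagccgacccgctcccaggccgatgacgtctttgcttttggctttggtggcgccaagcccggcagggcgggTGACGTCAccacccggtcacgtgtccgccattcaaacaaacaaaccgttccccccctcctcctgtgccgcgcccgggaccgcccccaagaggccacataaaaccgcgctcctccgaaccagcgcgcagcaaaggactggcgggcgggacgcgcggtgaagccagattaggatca
Nr4a1 promoter (GRCr8, chr7:134259888-134260187, + strand): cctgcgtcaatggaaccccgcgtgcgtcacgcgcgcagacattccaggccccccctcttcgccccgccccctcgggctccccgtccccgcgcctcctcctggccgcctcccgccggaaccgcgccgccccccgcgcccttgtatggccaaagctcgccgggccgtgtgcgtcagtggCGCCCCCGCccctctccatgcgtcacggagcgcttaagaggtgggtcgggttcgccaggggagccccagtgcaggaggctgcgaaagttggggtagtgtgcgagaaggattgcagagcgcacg
The table of promoters used here held 4 of the 8 genes (Junb, Egr1, Nr4a1 and Dusp1), and these were searched on both strands for the CRE (TGACGTCA), for AP-1 sites (TGAGTCA), for EGR sites (GCGTGGGCG or GCGGGGGCG) and for the serum response element. No match to one of these motifs is also a full match to another. Dusp1 held a CRE 124 bases before the start, found in 1.91% of 27457 promoters of the same length. Nr4a1 held an EGR site on the opposite strand (CGCCCCCGC) 73 bases before the start, found in 3.31%. Egr1 held serum response elements at 105 bases (CCATATTAGG) and 83 bases (CCATATATGG) before the start, found in 1.64% of promoters. AP-1 sites, found in 4.53%, occurred in 0 of these 4. A match describes the letters in this window and no binding.

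Over all 11 libraries, the other tested genes whose log2 CPM followed the mean standardised level of the 8 genes most closely were ENSRNOG00000003300 (Pearson r = 0.992, n = 11 libraries, a description) and ENSRNOG00000007830 (r = 0.980). ENSRNOG00000003300 was at 60.6 ± 10.6 CPM in PTX+SCS (SD, n = 3), 63.0 ± 25.8 CPM in PTX+Sham SCS (SD, n = 5) and 7.35 ± 1.02 CPM in Naive libraries (SD, n = 3). ENSRNOG00000007830 was at 111.5 ± 34.4 CPM in PTX+SCS (SD, n = 3), 100.4 ± 29.5 CPM in PTX+Sham SCS (SD, n = 5) and 6.62 ± 0.60 CPM in Naive libraries (SD, n = 3). The r covers the 3 groups together, with their means left in. The files pair neither ID with a name.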

How the data were processed

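The authors deposited raw counts, 1 whole number for each rat Ensembl ID and library. HISAT2, featureCounts, DESeq2 and rn6 are listed in the submitters' processing notes. Tool versions, annotation release, strand setting and filters were not given in the sources used here, and with an unknown strand setting reads of overlapping and antisense genes cannot be separated. Columns were matched to samples by title, and 17 further columns were not used. Of the 47357 rows of the RefSeq gene table used here, 0 carry an Ensembl ID, so lists of other immediate-early, injury and cell type genes could not be tested.

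Genes were filtered with filterByExpr (15758 of 32623 IDs kept), scaled by TMM and fitted with edgeR 4.0.16 in R 4.3.3: all 11 libraries, 1 term per group, robust quasi-likelihood F-test, two-sided, Benjamini-Hochberg adjustment over all tested genes. The standard error (SE) is the log2 fold change divided by the square root of F, and 95% intervals use the t quantile with the fit's total degrees of freedom. A prior count of 2 entered log2 CPM. The fit was tested on simulated counts. Libraries of 1 group differed beyond sampling noise (chi-square per degree of freedom 5.17 to 29.4). Whether each library came from its own rat is not stated in the labels, and the p-values reflect only how these samples vary, which may be technical. All 8 genes were to be named whatever their values, with 2 IDs most like them. Members and lists were chosen with earlier results of these data known. Alternatives covered scaling, filter, tool (DESeq2 1.42.0, limma 3.58.1), threshold, 2 groups only, a block for the replicate number, and the omission of each library in turn.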

Additional observations from a re-analysis of the deposited data

Results flagged for a closer look

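Jun in sham 3, at 91.3 CPM, lay far below the other sham libraries, at 119.4 to 131.8 CPM. Its gap to the nearest library was 0.732 of the range of the group on the log2 scale, above the 95% critical value of Dixon's test for 5 samples. Of the 8 genes, each tested in the sham group only, 1 stood out in this way, and chance does so in about 1 in 20 groups. Sham 3 was also the lowest sham library for Egr1, Nr4a1 and Dusp1.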

How the results depend on the processing

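PTX+SCS against PTX+Sham SCS had 0 of the 8 genes past the threshold in every alternative run, 0 to 0 without any 1 library. Over all genes, calls in this comparison fell from 563 in the main fit to 140 with 2 groups only. They fell to 36 without SCS 2 and 5 with the replicate block. With so few calls, 0 of 8 in those runs says little about these genes. PTX+SCS against Naive had 7 in every alternative except the replicate block (5) and 7 to 7 without any 1 library. PTX+Sham SCS against Naive, with 4, had 2 with no filter on low counts, 7 with DESeq2, 6 with limma-voom and 7 with limma-voom and quality weights. It had 6 at a threshold of 0.1, 2 with 2 groups only, 1 with the replicate block and 1 to 6 without any 1 library. Over all genes this comparison called 22 in the main fit and 21 with no filter on low counts. It called 20 with limma-voom, 27 with 2 groups only and 9 with the replicate block. The cause of these shifts was not tested. Same-numbered libraries had correlated deviations of -0.17 to 0.13, and the samples share only a number. The 1 correlated pair became 21 with no centring on group means, which keeps the step between groups by construction, and 0 to 1 without any 1 library. Signs turned only where no test passed. In PTX+SCS against PTX+Sham SCS the log2 fold change of Fos was 0.011 with quality weights and -0.13 to 0.057 without any 1 library, that of Dusp1 was -0.11 with the replicate block and -0.062 to 0.27 without any 1 library, and those without any 1 library were -0.29 to 0.092 for Egr1, -0.34 to 0.063 for Nr4a1 and -0.17 to 0.042 for Arc. Arc in PTX+Sham SCS against Naive was at 0.018 with limma-voom, 0.021 with quality weights and -0.12 to 0.11 without any 1 library, and in PTX+SCS against Naive at -0.22 to 0.025 without any 1 library. Atf3, at 38 to 231 counts a library, and Arc, at 82 to 430, had the fewest reads behind their values.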
